A study of Mus musculus with 212 samples.

Results

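The miRNAs named miR-297, miR-466, miR-467 and miR-669 were examined in small RNA from mouse brain as one group, the miRNA cluster of an intron of the gene Sfmbt2. Every row of the deposited miRNA table whose name carried one of these numbers was taken, whatever its letter, arm or level, which gave 36 of 881 rows. The rule goes by name and uses no expression value, though it was set with earlier results of these data known. The study sequenced small RNA of the right brain hemisphere in mice of the LXS panel of recombinant inbred strains. LXS strains were bred from ILS and ISS, lines selected for long and for short sleep after ethanol. Each LXS strain is inbred and untreated, and no source used here gives the age of the animals. The miRNA table holds 1 deposited value for each of 59 LXS strains, and the labels assign 196 libraries to these strains, 2 to 7 per strain. They come from 176 animals, 2 or 3 per strain, 15 of which gave several libraries, so libraries of a strain are not all separate animals.

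A miRNA hairpin is cut from a longer transcript by Drosha and then by Dicer, and either side of its stem, the 5p or the 3p arm, can become the mature miRNA. The cluster consists of many near-copies of a few hairpins inside Sfmbt2, is found in rodents, and is known for its role in the placenta, where Sfmbt2 is expressed from the paternal allele. Sfmbt2 itself codes for a Polycomb group protein with MBT domains, which bind methylated histone tails.

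The name of the group was checked against RefSeq gene records (GRCm38.p6). The span of Sfmbt2 holds 72 miRNA genes, and all 72 carry one of the 4 numbers: 5 are miR-297 genes, 24 miR-466, 14 miR-467 and 29 miR-669. A further 10 genes with these numbers lie elsewhere in the genome. By name, 33 of the 36 rows had at least 1 gene inside Sfmbt2. The other rows, miR-466q, miR-466k and miR-466i-3p, had their only gene outside it, so for these the location in Sfmbt2 does not hold. The row of miR-466f-3p has 3 genes inside Sfmbt2 and 1 elsewhere.

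Mature sequences in the RefSeq table (GRCm38.p6) matched 3 of the 45 miRNA names, those whose genes lie outside Sfmbt2. They are shown because no other member name matched, and each holds a run of alternating bases. Capitals mark the seed, bases 2 to 8, which pairs with targets.
miR-466q: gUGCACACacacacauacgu
miR-466k: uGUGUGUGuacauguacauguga
miR-466i-3p: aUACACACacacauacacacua
The miR-466q sequence lies at chr3:28419988-28420007, plus strand, miR-466k at chr3:85467396-85467418, plus strand, and miR-466i-3p at chr13:17747552-17747573, plus strand. The 3 seeds differ. The longest stretch in which 2 bases alternate was 12 of 20 bases in miR-466q, 9 of 23 in miR-466k and 11 of 22 in miR-466i-3p. A stretch at least that long was found in 0.173%, 0.69% and 0.288% of the 1738 mature entries of the table, respectively. The other member names had no match among these entries. Whether members inside Sfmbt2 hold such stretches was therefore not examined, and these shares do not set the 3 apart from them.

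The cluster was detected at low levels in brain. Its 36 rows together summed to a median of 1072 normalized units per strain, from 672 in LXS98 to 1429 in LXS23. That was a median of 0.00793% of the whole table. For comparison, the 57 rows of the miR-379 to miR-410 cluster, another large miRNA cluster, summed to a median of 780316. The normalized value is the authors' own scale, its error per strain and the number of reads behind it are unknown, and in whole brain fewer cells of a type and less RNA per cell cannot be told apart. Some brain miRNA rows were abundant in the same table, with miR-9-5p at rank 6 and miR-124-3p at rank 33. Other rows of brain miRNAs lay lower, down to rank 441 for miR-128-2-5p. The liver miRNA miR-122-5p had a mean of 5.79 and a highest value of 82.8. The muscle miRNA miR-206-3p had a mean of 18.6 and a highest value of 270.7, while the red-cell miRNA miR-451a had a mean of 11090.

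The miR-467 rows carried the most signal. They held a median of 44.3% of the group's sum, the miR-669 rows 32.9%, the miR-466 rows 21.2% and the miR-297 rows 1.70%. These shares, like all sums over rows given here, count every row in full. Some rows carry nearly the same values (below), so the same signal may be counted more than once. The highest member, miR-467b-5p, ranked 351 of 881 by mean. It ran from 98.5 in LXS14 through a median of 191.6 to 280.4 in LXS25. The row that joins miR-669a-5p and miR-669p-5p, made from 14 precursors, ran from 99.1 through 161.2 to 222.7. Its 2.25-fold range over strains was the narrowest of the 25 members with a mean of at least 10. The row of miR-467a-5p, made from 10 precursors, ran from 53.1 through 131.5 to 198.0. Only these 3 members had a mean above 100.

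A second tier of 9 rows had means between 30.2 and 58.1. The 3p rows miR-466a-3p/miR-466e-3p and miR-466b-3p/miR-466c-3p/miR-466p-3p had medians of 57.1 and 56.4. The single-hairpin rows miR-467e-5p and miR-467c-5p followed with medians of 47.3 and 46.0. Medians were 32.7 for miR-669c-5p, 35.7 for miR-669a-3p/miR-669o-3p, 29.2 for miR-669d-5p, 29.0 for miR-669l-5p and 30.2 for miR-467d-5p. Neighbours in this order had overlapping ranges over strains and were not separated. Another 13 rows had means from 10.001 to 18.3, among them both arms of miR-466d, miR-669b-5p, miR-669h-5p and miR-297b-5p, the only miR-297 row at this level.

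The filter used for the tests, a mean normalized value of at least 10, was passed by 25 of the 36 rows and by 647 of 881 rows of the table. The filter uses the mean over all strains and not a group. The row of miR-466a-5p/miR-466e-5p, with a mean of 10.001, lay just inside it and miR-466p-5p, with 9.9995, just outside. The 11 rows below it had means from 1.89 to 9.9995. Apart from miR-466q, which was listed at 0 in 11 strains, the other 35 members had a value above 0 in every strain. The 23 rows of 5p arms summed to a median of 868 and the 11 rows of 3p arms to 209, with rows of nearly the same values each counted in full.

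**Figure D1:**
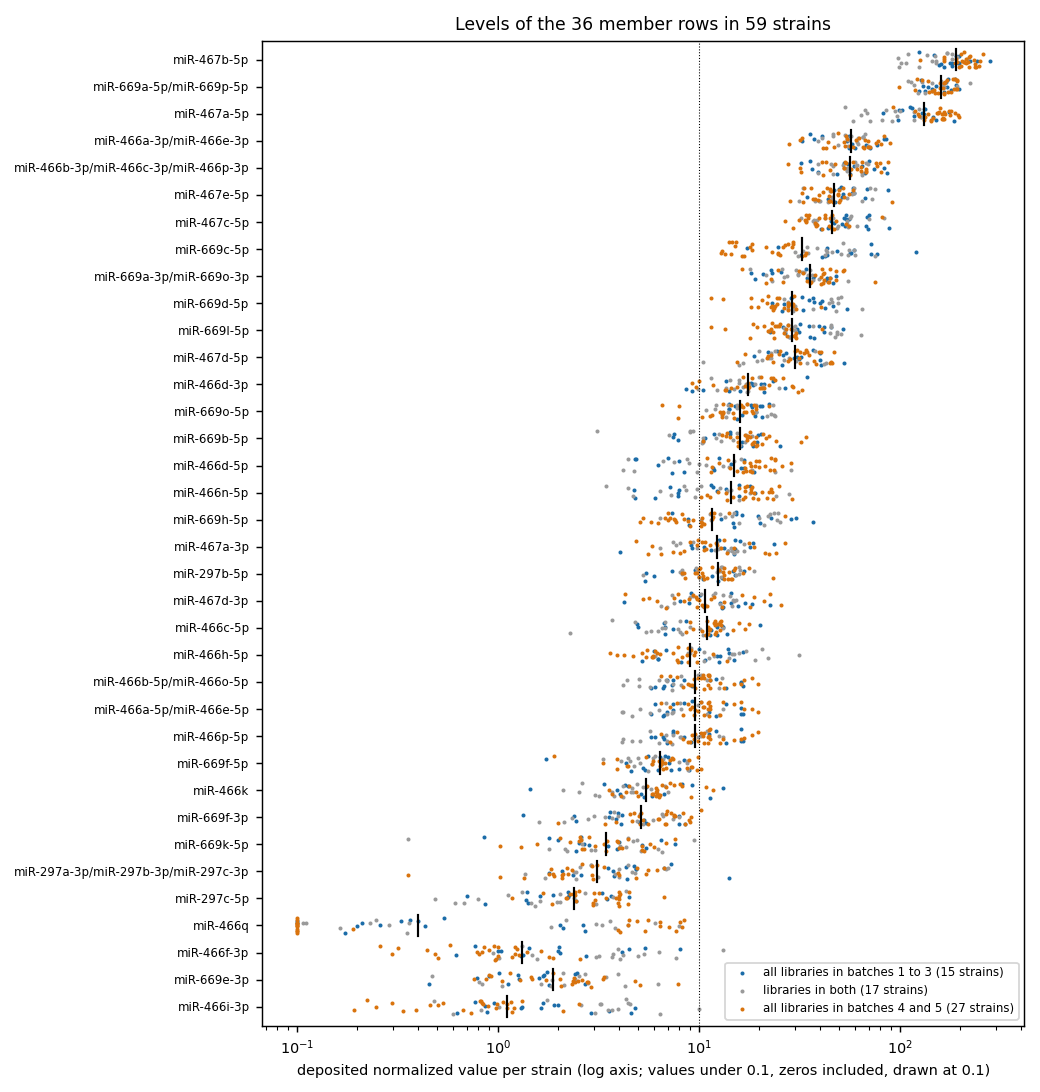
Deposited normalized value (log axis) of each of the 36 member rows in each of 59 strains, coloured by the sequencing batches of the strain's libraries; black ticks are medians and the dotted line is the filter at 10. The top 3 rows have medians above 100, and miR-466q falls into a low and a high band.

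Several rows carried nearly the same values. Rows were compared strain by strain, and pairs with a median difference under 10% were called near-identical. The rows miR-466p-5p, miR-466a-5p/miR-466e-5p and miR-466b-5p/miR-466o-5p differed by medians of 0.00859% to 0.0653%. The difference was 1.29% for miR-669l-5p and miR-669d-5p, which had means of 31.5 each. It was 1.73% for the pair of joined miR-466 3p rows, 2.56% for miR-466d-5p and miR-466n-5p, and 6.48% for miR-467d-3p and miR-467a-3p. These rows are not independent measurements, and counting each set once left 20 of the 25 rows. By contrast, miR-467b-5p and miR-467a-5p tracked each other over strains (Pearson r = 0.96 before removal of batch shares) at levels a median of 34.5% apart. In the table, 7 member rows joined several mature names and 12 joined several precursors, 83 of the 107 precursor entries of all 36 rows, so a value of such a row cannot be given to one hairpin.

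Libraries were sequenced in 5 batches, and the deposited values of many miRNAs differed with the share of a strain's libraries in each batch. With limma's F test on log2(value + 1), 17 of 25 members passed an adjusted p of 0.05, against 86.7% of the 647 rows tested. Batch shares accounted for a median of 0.207 of the variance of members, against a median of 0.410 over all rows. The members differed widely in this. The share of variance was 0.636 for miR-669c-5p, 0.58 for miR-466d-5p, 0.56 for miR-466n-5p and 0.48 for miR-467a-5p. It was 0.05005 for miR-669a-5p/miR-669p-5p and 0.09 for miR-466d-3p.

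The direction also differed between members. Of the strains, 15 had all libraries in batches 1 to 3 and 27 had all in batches 4 and 5. For miR-669c-5p the first ran from 17.4 through a median of 48.7 to 120.2 and the second from 12.8 through 21.5 to 34.2. The groups overlapped, with the strains of batches 4 and 5 lower on average (difference -1.19 on the log2(value + 1) scale, adjusted p = 4.93e-08 by limma). For miR-466d-5p the values ran from 4.80 through 11.7 to 18.9 in batches 1 to 3 and from 10.9 through 18.1 to 28.9 in batches 4 and 5, higher by 0.77 (adjusted p = 1.01e-05 by limma), again with overlap. The highest miR-669c-5p value belonged to LXS90 and the lowest to LXS9, and 1 library carries both strain names in its labels. Without these strains miR-669c-5p ran from 17.4 through 46.0 to 76.7 in batches 1 to 3 and from 13.0 through 22.3 to 34.2 in batches 4 and 5. For miR-669h-5p the medians were 15.4 and 8.82, and for miR-467a-5p they were 129.0 and 158.4.

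In this comparison 8 of 25 members were lower in batches 4 and 5, against 37.2% of all rows, and 5 were higher, against 32.1%. All of these were 5p rows. Of the 19 tested 5p members 16 passed the F test, against 86.6% of all tested rows of 5p arms. Of the 6 tested 3p members 1 did, miR-467d-3p with an adjusted p of 0.0497 by limma, against 87.0% of all tested rows of 3p arms. The 3p members include near-identical pairs, and the difference between arms was not tested. The sum over members had medians of 1072 in the strains of batches 1 to 3 and 1126 in those of batches 4 and 5. Of the 32 strains without a HIGH, MED or LOW tag, 27 were in batches 4 and 5 only, and no tagged strain was, so batch and strain differences cannot be told apart for these strains.

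**Figure D2:**
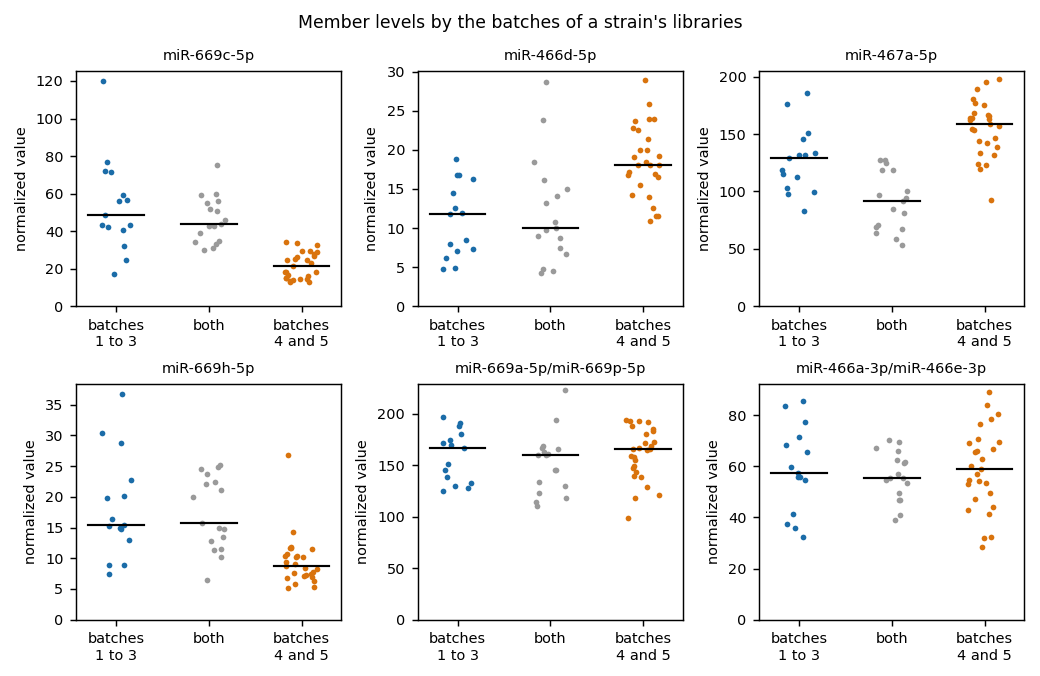
Normalized value of 6 members in strains grouped by the sequencing batches of their libraries (15 strains in batches 1 to 3, 17 in both, 27 in batches 4 and 5); black lines are medians. miR-669c-5p and miR-669h-5p are lower in batches 4 and 5, miR-466d-5p and miR-467a-5p are higher, and the last 2 rows overlap throughout.

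Of the 59 strains, library names carry the tag HIGH for 8, MED for 9 and LOW for 10 (ISS libraries carry HIGH and ILS libraries MED), and no source used here says what these words rank. The ranges of the members by tag overlapped. The sum of the 36 rows ran from 834 through a median of 1068 to 1351 in HIGH strains and from 810 through 1061 to 1350 in LOW strains. In limma with batch shares as covariates no member of 25 passed an adjusted p of 0.05, nor did any of the 647 rows (0%). At an unadjusted p under 0.05 the counts were 0 members and 4.02% of all rows. The median HIGH minus LOW difference was -0.03 for members and 0.005 for all rows on the log2(value + 1) scale. The member with the smallest p was miR-467c-5p, with 45.2 to 88.4 in HIGH strains and 32.2 to 68.7 in LOW strains. Its difference was 0.19 ± 0.15 (SE), with an unadjusted p of 0.198 and an adjusted p of 0.981 by limma, and the groups overlapped. The next members by p were miR-466b-3p/miR-466c-3p/miR-466p-3p with a difference of -0.18, miR-467d-5p with -0.19, and miR-466a-3p/miR-466e-3p with -0.17.

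After removal of batch shares the SD of members between strains had a median of 0.435 on the log2(value + 1) scale, against 0.317 over the 647 rows. The largest SDs were 0.50 for miR-467a-3p, 0.49 for miR-467d-3p, 0.49 for miR-669h-5p and 0.47 for miR-669c-5p. The difference from other rows was not tested, and the members lie low in the table (median rank 604 of 881).

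The members varied together over strains. Over the 300 pairs of the 25 rows, with batch shares removed, the median Pearson r across 59 strains was 0.34, and 287 pairs (95.7%) were above 0. Over all 208981 pairs of the 647 rows the median was 0.0006 and 50.1% were above 0. Over the 1326 pairs of the 52 miR-379 to miR-410 rows that passed the filter it was 0.04. All rows share libraries, batches and scaling, so these values are descriptions with no p. Counting near-identical rows once gave a median of 0.36. This limit goes by level, so miR-467b-5p and miR-467a-5p, with an r of 0.95 at levels 34.5% apart, both stayed in. Whether reads of one near-copy were counted in the row of another was not tested. In strains with all libraries in batches 4 and 5 the median was 0.57, and in those of batches 1 to 3 it was 0.23.

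The values were then read by miRNA number and by arm. Pairs of rows with the same number had a median r of 0.36 and pairs of different numbers 0.34. Pairs of 3p rows had a median of 0.75, with none of 15 below 0.61, while pairs of 5p rows had 0.34, from -0.26 to 1.00. Pairs of a 5p and a 3p row had 0.32. With near-identical rows counted once the 6 pairs of 3p rows had a median of 0.76. 3p rows of different numbers had r from 0.61 to 0.82 over 11 pairs. For example, miR-466d-3p and miR-669a-3p/miR-669o-3p had an r of 0.82.

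The 5p rows with the highest r were not always of the same number. Apart from its near-copy miR-669d-5p, the row miR-669l-5p went with miR-466h-5p (r = 0.69), miR-467c-5p (0.62), miR-669h-5p (0.59), miR-467e-5p (0.56), miR-669a-5p/miR-669p-5p (0.53) and miR-669c-5p (0.52). The row miR-467a-5p went with miR-467b-5p (0.95) and miR-467d-5p (0.67), with miR-466a-5p/miR-466e-5p and miR-466b-5p/miR-466o-5p (0.63 each), and against miR-466h-5p (-0.26), the lowest value of any pair. The member closest to the rest was miR-669a-5p/miR-669p-5p, with a mean r of 0.53 and no value below 0.34, and the farthest was miR-466c-5p with 0.19. By the place of a hairpin in the cluster, for 11 5p rows with a single gene, near-identical rows counted once, pairs at most 14 hairpins apart had a median r of 0.34 and pairs farther apart 0.38.

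**Figure D3:**
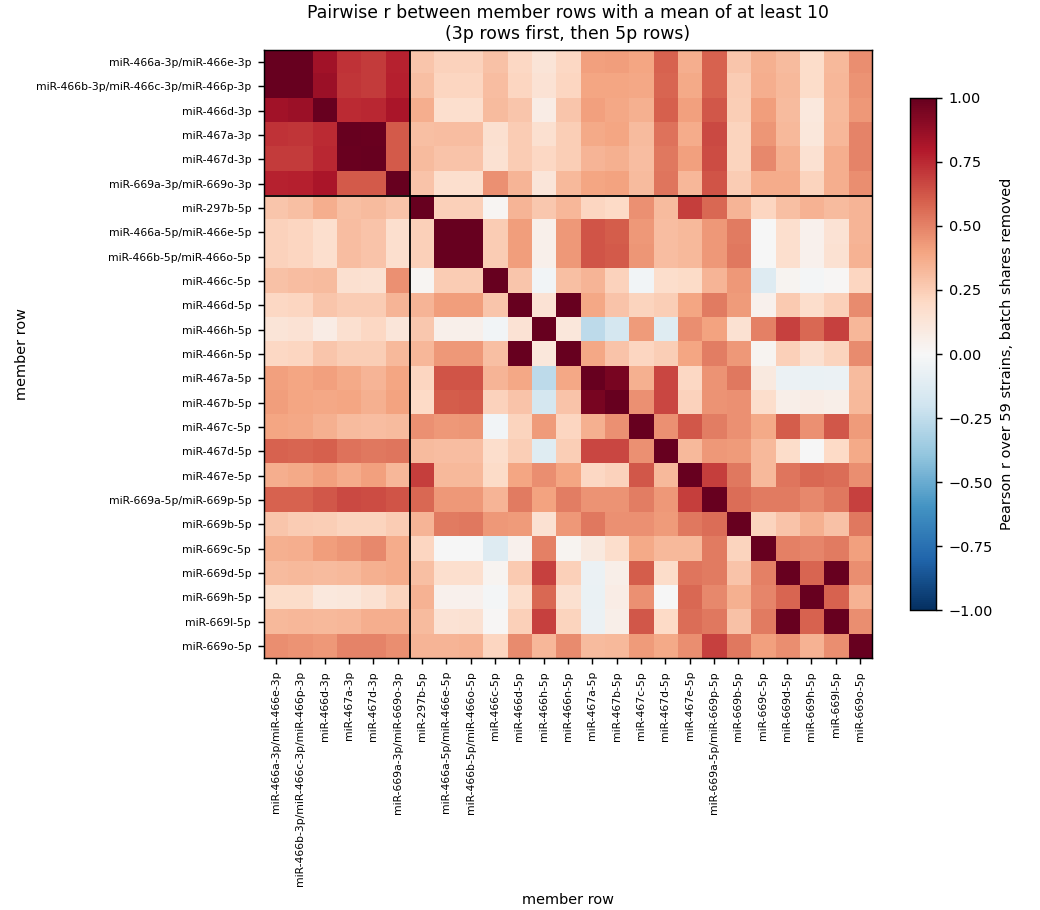
Pearson r between the 25 member rows with a mean of at least 10 over 59 strains, after removal of batch shares; 3p rows come first and black lines divide the arms. The block of 3p rows is the darkest, with all values at or above 0.61, and miR-466h-5p has negative values with miR-467a-5p and miR-467b-5p.

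The mean of the standardized members was lowest in LXS98 and LXS78 and highest in LXS23 and LXS49. It had an r of -0.09 with the sum of the table per strain and of 0.05 with the number of labelled libraries. Among rows outside the group, the row most like this mean was a predicted miRNA without a miRBase name (r = 0.61 over 59 strains, values 11.6 to 65.9). This row differed from the member miR-669d-5p by a median of 0.607% over strains, so it is not an independent likeness, and it was the only outside row this close to a filtered member. It was followed by miR-185-5p (0.41), miR-3068-5p (0.37), miR-217-3p (0.36) and miR-7b-5p (0.34).

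The 5p and 3p rows that share a miRNA name were compared for 8 pairs in which both had a mean of at least 10. Only the rows of miR-466d and miR-467d are listed with 1 precursor in both arms. The others pool several hairpins, not always the same ones in both arms. But miR-467d-3p was near-identical to miR-467a-3p, a row of 10 precursors, and miR-466d-5p to miR-466n-5p. The values of these 2 pairs therefore cannot be given to 1 hairpin with certainty either. The median ratio of 5p to 3p differed between the pairs. For miR-467a the 5p row was a median of 10.3 times the 3p row, and for miR-669a 4.39 times. For miR-466a/miR-466e it was 0.171 times and for miR-466d 0.826 times. Over strains the ratio ran from 0.737 to 5.14 for miR-467d, with a median of 2.80, from 0.203 to 1.95 for miR-466d and, between pooled rows, from 3.63 to 28.1 for miR-467a.

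The correlation of the arms was computed for each pair. For miR-669a the arms had a Pearson r of 0.58 and a Spearman rho of 0.58 over 59 strains. For miR-467d they had an r of 0.53 and a rho of 0.57. Both passed a two-sided permutation test with 100000 resamples, adjusted over the 8 pairs (adjusted p = 8e-05 for r and 4e-05 for rho in each). The unadjusted permutation p of both rho values was 1e-05, the smallest these resamples can give. The r was 0.48 and 0.62 in strains of batches 1 to 3 and 0.72 and 0.70 in those of batches 4 and 5. Without the 2 strains farthest from the median on the 5p axis it was 0.53 and 0.61.

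The pairs of miR-467a (r = 0.30, rho = 0.26) and miR-669o (r = 0.29, rho = 0.28) had a permutation p of 0.0226 and 0.0254 and each an adjusted p of 0.0508 for r. For rho the adjusted p was 0.0719 and 0.0707. The remaining pairs had an r of 0.25 for miR-466c (adjusted p = 0.0941, permutation test), 0.15 for miR-466d, 0.11 for miR-466a/miR-466e and 0.10 for miR-466b. Rows are shared between pairs: miR-669a and miR-669o use one 3p row, and miR-466b and miR-466c another. With batch shares removed from both arms 6 of 8 pairs passed, with r from 0.28 to 0.63. In the 15 strains of batches 1 to 3 no pair passed and 2 had an unadjusted permutation p under 0.05. In the 27 strains of batches 4 and 5, 4 passed.

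The rows whose only gene lies outside Sfmbt2 were all below the filter. The row miR-466k, the one with the GU repeat shown above, had values from 1.44 through a median of 5.48 to 13.2. It had a median r of 0.29 with the filtered members and its highest, 0.79, with miR-466a-5p/miR-466e-5p. The row miR-466i-3p ran from 0.193 through 1.11 to 10.04, and its median r with the members was 0.09. With miR-466f-3p it had r = 0.97 before removal of batch shares, the miRNA with genes in both places.

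The values of miR-466q fell into a low and a high band. It was listed at 0 in 11 strains, stayed at or below 0.539 in 32 strains, and lay between 1.84 and 8.44 in the other 27, with a median of 4.45. The gap between the bands, from LXS49 at 0.539 to LXS93 at 1.84, was 0.88 on the log2(value + 1) scale. Counting only gaps with at least 10 strains on each side, the next largest gap of a member was 0.26, for miR-669h-5p. A gap at least as wide as that of miR-466q was found in 8 of 881 rows, miR-466q included.

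Both bands were present in every batch class. In strains of batches 1 to 3, 11 lay between 0 and 0.539 and 4 between 2.03 and 2.73. In strains of batches 4 and 5, 13 lay between 0 and 0.190 and 14 between 3.96 and 8.44. In strains with libraries in both, 8 lay between 0.107 and 0.361 and 9 between 1.84 and 7.96. The high band held 3 HIGH, 2 MED, 6 LOW and 16 untagged strains. The median r of miR-466q with the 25 filtered members was 0.06, with a highest value of 0.11. These are low values, and the number of reads behind them is unknown.

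**Figure D4:**
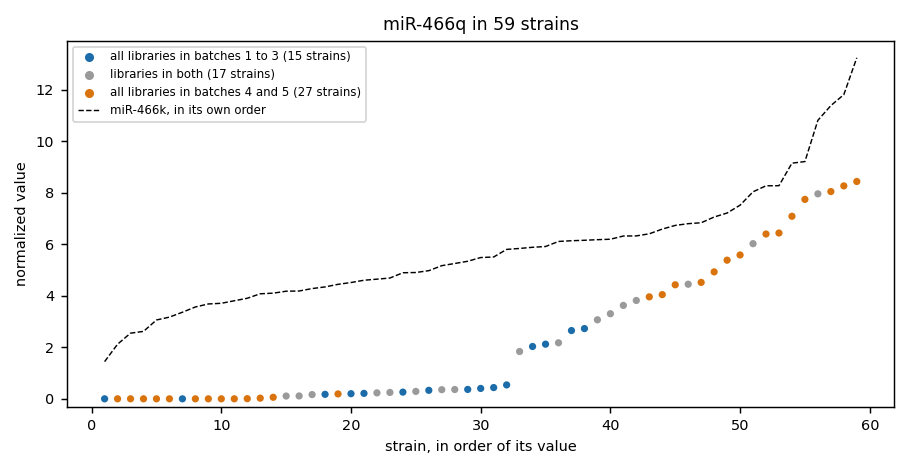
Normalized value of miR-466q in the 59 strains in order of value, coloured by batch class, with miR-466k in its own order as a dashed line. A gap separates 32 strains at or below 0.539 from 27 at or above 1.84, and each batch class has strains on both sides.

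The host gene was measured in a separate mRNA table of log2 values. The relation of Sfmbt2 to its miRNAs over strains was not tested. The column names of the table give a strain, but profiles were used only for strains with no more profiles than labelled libraries, since the labels describe small RNA libraries and not these profiles. That left 4 strains, ILS (6 profiles), ISS (6), LXS41 (5) and LXS80 (6), of which only 2, LXS41 and LXS80, have a miRNA value. At least 6 strains would be needed. The labels do not describe these profiles or tie them to animals, so p-values measure the spread between profiles as named, which may be technical. The mRNA table has no row for a miRNA gene of the cluster. Neuronal Snap25 lay at the 99.9th percentile of genes by mean level in the profiles. Of 6 genes typical of other tissues Prl did not pass the filter, Alb, Myh6, Gh and Ckm lay between percentiles 36.9 and 67.3, and Ttr, a choroid plexus gene in brain, was above the 99.9th.

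Sfmbt2 lay at the 50.6th percentile of genes by mean level. Its log2 values in ILS were 7.24, 7.24, 7.19, 7.25, 7.20 and 7.26, and in ISS 6.96, 6.99, 7.09, 7.11, 7.09 and 7.16. Every ILS profile was above every ISS profile. The means were 7.23 ± 0.03 (SD, 6 profiles) and 7.07 ± 0.08 (SD, 6 profiles). The difference was 0.16 ± 0.04 (SE) with an adjusted p of 0.0225 in limma over 20617 genes, of which 7.6% were called in either direction and 3.39% higher in ILS. An exact two-sided permutation test of the 6 and 6 values gave p = 0.00216, the smallest that 924 splits allow.

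Column names end in a number, called the set here, whose meaning no source used here gives. It is 1 for some profiles of both strains. In set 1 ILS ran from 7.19 to 7.24 and ISS from 6.96 to 7.09. The other sets, 11 for ILS and 15 for ISS, ran from 7.20 to 7.26 and from 7.09 to 7.16. As set 11 holds only ILS and set 15 only ISS, a set term leaves the difference to the profiles of set 1. With set as a term the difference was 0.21 ± 0.06 (SE) with an adjusted p of 0.0738 in limma. With these fewer profiles the call did not hold. It was also lost without ISS replicate 1 (0.14, adjusted p = 0.0594 in limma) and without ISS replicate 2 (0.15, adjusted p = 0.0543).

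The 2 LXS strains with both kinds of value did not pass the test for Sfmbt2. LXS41 profiles were of sets 1, 6 and 9 and LXS80 profiles of sets 3 and 14, so strain and set cannot be told apart. The values were 7.12, 7.25, 7.26, 7.15 and 7.28 in LXS41 and 7.31, 7.24, 7.25, 7.29, 7.33 and 7.43 in LXS80, and the groups overlapped. The difference, LXS41 minus LXS80, was -0.10 ± 0.05 (SE) with an adjusted p of 0.141 in limma, against 20.7% of genes called. An exact two-sided permutation test gave p = 0.0584, where 0.00433 is the smallest possible. The members summed to 1111 in LXS41 and 1101 in LXS80, at places 34 and 32 of 59 in rising order. Of the 25 filtered rows 15 were higher in LXS41, with ratios from 0.573 for miR-466h-5p to 1.31 for miR-669h-5p, and a median ratio of 1.01. With 1 value per strain these ratios have no error.

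**Figure D5:**
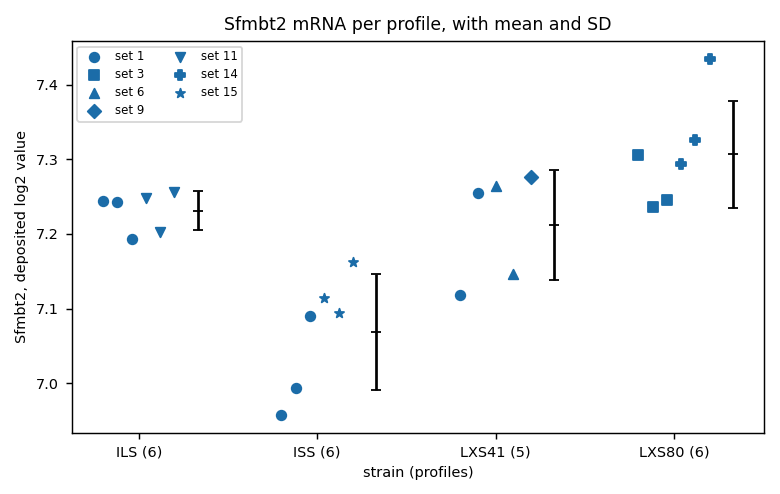
Deposited log2 value of Sfmbt2 in each mRNA profile of 4 strains, with marker shape for the set (the number that ends the column name) and bars for the mean and SD. All 6 ILS profiles lie above the 6 ISS profiles, and LXS41 and LXS80 overlap.

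Other Polycomb genes, the group Sfmbt2 belongs to, were read from a list of 46, of which 43 were tested. Between ILS and ISS 1 was higher in ILS, Sfmbt2, and 1 was lower, L3mbtl4, another MBT protein, with means of 6.84 and 7.03 (difference -0.19, adjusted p = 0.0214 by limma), against 4.21% of all genes lower. The median difference was -0.01 for the list and -0.01 over all genes. Ring1, a ubiquitin ligase subunit of Polycomb repressive complex 1, and Phf19, which binds methylated histone H3, had differences of -0.11 and 0.12 with an adjusted p of 0.213 each in limma. Between LXS41 and LXS80 12 of 43 were lower in LXS41 against 18.7% of all genes, with a list median of -0.10. The median of all genes was -0.06 in this comparison. As LXS41 and LXS80 share no set, strain and set cannot be told apart in it. After quantile normalization 1 of 43 was lower and 1 higher. Over all genes calls were 419 higher and 3847 lower as deposited, and 458 and 748 after it. Left out in turn, LXS41 replicates 1 and 4 and LXS80 replicates 3, 4 and 6 brought the 16 genes of both lists that were lower to 6, 5, 8, 9 and 7. The share of all genes called in these fits was not counted, so the drops are not a result about the lists. The myelin gene Mbp (-0.16) and the muscle gene Ckm (0.22) also passed the test in this comparison, and their part in it was not tested.

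Of 13 gene symbols listed as neighbours of Sfmbt2, 12 had mRNA values, and 11 of these passed the filter and were tested. Between ILS and ISS, Itih2, which codes for a heavy chain bound to hyaluronan, was higher in ILS (7.43 and 7.12, difference 0.31, adjusted p = 0.0221 by limma). Its relative Itih5 was lower in ILS (7.92 and 8.19, difference -0.27, adjusted p = 0.0013 by limma). Atp5c1, a subunit of ATP synthase, had a difference of -0.08 with an adjusted p of 0.275 in limma. With set as a term none of the 54 tested genes of both lists passed in limma, and 5 had an unadjusted p under 0.05, against 4 and 7 without the term. Over all genes 2.41% passed with the term and 7.6% without it, and the 4 list genes were 7.41% of the 54.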

How the data were processed

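Small RNA was size selected and sequenced, per the labels' protocols. The authors deposited a normalized miRNA signal and a variance-stabilized table on a log2-like scale, each with 1 value per LXS strain, and log2 mRNA values per profile. For the aligner, counting and scaling, the sources used here give nothing. Of the mRNA columns, 23 belong to strains with no more columns than labelled libraries and were used, and the other 376 were not used. One library named LXS90 in one field and LXS9 in another was left in no group.

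Tests used limma 3.58.1 in R 4.3.3 on log2(value + 1) for miRNAs with a mean of at least 10, with Benjamini-Hochberg adjustment over all rows, and on deposited log2 values for genes at or above 6 in at least 5 profiles. Correlations used Python 3.11.15. Scripts were tested on simulated data. Members were named by level, spread, batch share, p-value and arm pairing, and genes by the smallest ILS minus ISS p. Members, lists and this rule were chosen with earlier results of these data known. Alternatives varied pseudocount, filter, scaling, strains and profiles.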

Additional observations from a re-analysis of the deposited data

How the results depend on the processing

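The values rest on 1 deposited figure per strain with unknown read number, so low rows have unknown precision. With a mean of at least 100 required, 2 of 3 tested members passed the batch test, against 17 of 25 in the main fit, where 86.7% of all rows passed. The share of all rows passing at a mean of at least 100 was not counted. The HIGH minus LOW comparison gave 0 members under all 10 alternatives. The median r between members was 0.57 in strains of batches 4 and 5 only, against 0.34. Of the 8 pairs of 5p and 3p rows 2 passed, and 6 did with batch shares removed, 4 without the 2 strains farthest from the median, 5 after centring on the median of each strain, 0 in strains of batches 1 to 3 (2 at an unadjusted permutation p under 0.05) and 4 in strains of batches 4 and 5. The Sfmbt2 difference between ILS and ISS was 0.21 with set as a term (adjusted p = 0.0738 by limma) and 0.21 in set 1 alone (adjusted p = 0.280 by limma), and 0.14 to 0.18 with 1 profile left out. Polycomb and neighbour genes called between ILS and ISS numbered 4, or 0 with set as a term and 2 to 4 with 1 profile left out. Those lower in LXS41 numbered 16, or 7 with LXS41 and LXS80 alone, 2 after quantile normalization and 5 to 19 with 1 profile left out. For fits with a profile left out or with these strains alone, the share of all genes called was not counted. Their changed counts are therefore not a result about the lists. The fit with set as a term takes the ILS minus ISS difference from the profiles of set 1 alone. The cause of the changes between settings was not tested. LXS41 minus LXS80 with set as a term could not be fitted, as these strains share no set. Counting near-identical rows once, leaving out LXS9 and LXS90, the batch-class versions of the HIGH minus LOW and arm-pair results and the set 1 version were chosen after seeing the data. No paired analysis was possible because the mRNA columns carry no numbers that pair profiles.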
